A study of Canis lupus familiaris with 29 samples.

Results

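The genes described here are 24 genes of the ATF4 pathway and 12 cytosolic aminoacyl-tRNA synthetases in MDCKII cells, a polarised epithelial line from dog kidney. Members were taken by gene name with no cut on measured values, though the list was chosen with earlier results of these data known. The 37 names were looked up in the gene names of the expression files, and 36 of the 24223 listed genes matched. PHGDH is not analysed here. All 36 passed the filter on low values (at least 1 FPKM in at least 2 libraries), as did 11774 genes in all.

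Expression was measured by stranded mRNA sequencing in 29 libraries of 13 groups. AVL9-KD cells, in which AVL9 is knocked down, were sampled as cells for seeding (day 0, n = 2) and on day 4 on transwell inserts (2D, n = 2). The libraries of each AVL9-KD group carry the line numbers 1 and 4. DENND5A-KD cells were sampled on day 0, 2D day 4 and 2D day 7 (n = 2 each), with the line numbers 1 and 2. Wild-type cells were sampled on day 0 (n = 4), as cysts on top of matrigel (3D) after 24 h and on days 3, 5 and 8 (n = 2 each) and day 14 (n = 1), and on inserts on 2D days 4 and 11 (n = 3 each). Inserts were cultured to over-confluence, and all cells shared a serum medium that holds glutamine. The labels name no control vector line, so the knockdowns are set against wild-type cells. The labels do not say whether replicates are separate cultures. The spread behind each p-value is that of these libraries and may be technical.

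ATF4 is a transcription factor whose mRNA is translated more efficiently when the initiation factor eIF2 is phosphorylated, as happens under amino acid shortage, unfolded protein in the endoplasmic reticulum, haem shortage or viral RNA. Its targets include enzymes that make non-essential amino acids, transporters that import amino acids, and many of the cytosolic aminoacyl-tRNA synthetases, which load each amino acid onto its tRNA. Other targets are regulators that damp or extend the response, such as TRIB3, CHAC1, DDIT3 and SESN2. Because ATF4 is controlled largely at translation, the ATF4 mRNA need not follow its targets.

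The libraries held 10163 to 10903 genes at 1 FPKM or more, and no pair of libraries was identical. Read depth is unknown, since FPKM (fragments per kilobase of transcript, scaled to library size) carry no counts. AVL9 was at 3.89 to 7.21 FPKM in the 4 AVL9-KD libraries and 11.8 to 27.8 FPKM in the 19 wild-type libraries. DENND5A was at 1.88 to 4.38 FPKM in the 6 DENND5A-KD libraries and 3.86 to 15.6 FPKM in the wild-type libraries. In matched groups these ranges did not overlap, at 1.88 to 2.02 FPKM in DENND5A-KD and 4.98 to 6.89 FPKM in wild-type cells on day 0, and 3.36 to 4.29 FPKM in DENND5A-KD and 10.2 to 10.9 FPKM in wild-type inserts on 2D day 4. The 4 kidney epithelial markers found (of 6) summed to at least 393.6 FPKM in every library, while fibroblast markers summed to at most 0.644 FPKM, endothelial markers to at most 0.947 FPKM and leukocyte markers to at most 0.878 FPKM. Replicate 1 of 4 wild-type groups (2D day 4, 3D day 8, 3D day 3 and day 0) deviated together from their groups, with pairwise correlations of 0.40 to 0.56 across genes. On 3D days 3 and 8, with 2 libraries each, the deviations mirror each other. There the correlations cannot tell which replicate deviated (0.47 between the days for replicate 1 and for replicate 2). With the single 3D day 14 library, these replicate 1 libraries make 5 wild-type libraries that stood apart in earlier work on the same files. NUPR1 marks them: it was at 1.81, 3.65, 7.65, 1.69 and 3.27 FPKM in these 5 and at 11.4 FPKM or more in every other wild-type library.

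As wild-type cells formed cysts, most of the amino acid programme declined, from day 3 onward. At 24 h 4 members had an unadjusted p under 0.05 against day 0, as did 13.6% of all tested genes. No member passed an adjusted p of 0.05, where 1.19% of all tested genes passed (0.629% higher and 0.561% lower). The test was limma on log2(FPKM + 1), with Benjamini-Hochberg adjustment over all tested genes. Over all genes 74 were higher and 66 lower as deposited, 84 and 136 under quantile normalisation and 122 and 192 under median-ratio scaling. On day 3, 28 members were lower and 3 higher, where 51% of all tested genes passed (28% higher and 23.1% lower). On day 5, 28 were lower and 5 higher, where 57.6% of all tested genes passed (26.4% higher and 31.2% lower). On day 8, 29 were lower and 4 higher, where 62.8% of all tested genes passed (24.7% higher and 38% lower), and the median member differed from day 0 by -0.98 on the log2(FPKM + 1) scale, against -0.13 for all tested genes. Over all genes 2911 were higher and 4478 lower as deposited, 3632 and 3913 under quantile normalisation and 3936 and 3800 under median-ratio scaling. This scale understates the change of low genes. A lower FPKM in bulk RNA cannot tell less RNA per cell from fewer cells that express the gene.

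The largest declines on day 8 were in a pseudokinase, a transporter, a glutathione-degrading enzyme and a mitochondrial folate enzyme. TRIB3 (ENSCAFG00000006965), a pseudokinase that binds and inhibits ATF4, had 19.3, 11.2, 11.9 and 10.7 FPKM on day 0, 14.98 and 14.5 FPKM at 24 h, 3.39 and 2.63 FPKM on day 3, 2.35 and 2.72 FPKM on day 5 and 2.02 and 0.983 FPKM on day 8. All day 3 to 8 libraries were below all day 0 libraries, and the day 8 difference was -2.51 ± 0.31 (SE, adjusted p = 7.54e-07). SLC7A5 (ENSCAFG00000019901), the large neutral amino acid transporter LAT1, had 131, 120.5, 122 and 112 FPKM on day 0, 116 and 102 FPKM at 24 h, 34.1 and 33.8 FPKM on day 3, 24.7 and 31.9 FPKM on day 5 and 22.2 and 19.6 FPKM on day 8. The 24 h libraries lay within or just below the day 0 range and the later ones far below it, with a day 8 difference of -2.48 ± 0.18 (SE, adjusted p = 1.05e-09). CHAC1 (ENSCAFG00000009414), which degrades glutathione, had 25.3, 7.37, 7.39 and 9.60 FPKM on day 0, 9.88 and 7.27 FPKM at 24 h, 3.45 and 2.57 FPKM on day 3, 2.29 and 2.54 FPKM on day 5 and 1.52 and 1.67 FPKM on day 8. A single day 0 library was far above the other 3, and the day 8 difference was -2.19 ± 0.36 (SE, adjusted p = 3.12e-05). MTHFD2 (ENSCAFG00000008716), a mitochondrial folate enzyme, had 69.6, 50.7, 48.3 and 47.1 FPKM on day 0, 48.4 and 46.3 FPKM at 24 h, 14.97 and 18.7 FPKM on day 3, 16.4 and 13.8 FPKM on day 5 and 9.98 and 12.4 FPKM on day 8. Its levels on days 3 to 8 did not overlap day 0, with a day 8 difference of -2.16 ± 0.21 (SE, adjusted p = 4.52e-08).

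Most of the serine, folate and other amino acid enzymes fell. ASNS (ENSCAFG00000002222), asparagine synthetase, had 45.8, 36.9, 44.4 and 36.6 FPKM on day 0, 44.3 and 49.7 FPKM at 24 h, 27.2 and 28.8 FPKM on day 3, 20.7 and 19.4 FPKM on day 5 and 15.9 and 17.5 FPKM on day 8. Day 3 already lay below day 0, and the difference was -0.53 ± 0.21 (SE, adjusted p = 0.0452) on day 3 and -1.24 ± 0.21 (SE, adjusted p = 4.52e-05) on day 8. PSAT1 (ENSCAFG00000001570), phosphoserine aminotransferase of the serine pathway, had 102, 111, 105 and 116 FPKM on day 0, 126 and 120.4 FPKM at 24 h, 61.6 and 68.5 FPKM on day 3, 59.7 and 53.4 FPKM on day 5 and 39.8 and 44.3 FPKM on day 8. It differed by -0.73, -0.93 and -1.35 on days 3, 5 and 8 (adjusted p = 0.00599, 7.08e-04 and 1.18e-05 by limma). SHMT2, mitochondrial serine hydroxymethyltransferase, differed by -1.66 on day 8, and ALDH1L2, a mitochondrial formyl-folate dehydrogenase, by -1.65. PCK2, mitochondrial phosphoenolpyruvate carboxykinase, differed by -0.87. PSPH, which makes the last step to serine, moved the other way, at 0.43 on day 5 and 0.40 on day 8 (adjusted p = 0.0326 and 0.0438 by limma), but neither difference passed without the 5 libraries that stood apart.

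All 4 transporters fell on each of days 3, 5 and 8. SLC3A2, the heavy chain that carries SLC7A5 to the plasma membrane, had 38.5, 48.9, 44.5 and 43.8 FPKM on day 0, 54.0 and 51.3 FPKM at 24 h, 19.0 and 23.5 FPKM on day 3, 18.4 and 23.2 FPKM on day 5 and 12.5 and 16.1 FPKM on day 8. SLC7A1, a cationic amino acid transporter for arginine and lysine, had 40.6, 30.9, 31.8 and 29.8 FPKM on day 0, 27.0 and 26.5 FPKM at 24 h, 10.5 and 9.75 FPKM on day 3, 10.2 and 10.8 FPKM on day 5 and 10.1 and 6.59 FPKM on day 8. SLC38A2, a sodium-coupled transporter of small neutral amino acids, had 41.6, 32.5, 30.5 and 29.1 FPKM on day 0, 29.2 and 32.5 FPKM at 24 h, 24.4 and 20.9 FPKM on day 3, 15.3 and 19.9 FPKM on day 5 and 11.9 and 12.3 FPKM on day 8. The day 8 differences were -1.56, -1.89 and -1.38 for these genes in the order given, and no day 8 library of the 3 overlapped day 0.

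All 12 synthetases were lower on days 3, 5 and 8, by a median of -0.54, -0.62 and -0.83, and none passed at 24 h. Some of their calls on days 3 and 5 were lost under other settings, as given below. GARS (ENSCAFG00000003086), the glycine enzyme, had 91.7, 85.7, 84.3 and 72.3 FPKM on day 0, 95.8 and 93.9 FPKM at 24 h, 46.4 and 50.0001 FPKM on day 3, 40.8 and 37.4 FPKM on day 5 and 30.01 and 30.5 FPKM on day 8. Its day 8 libraries held well under the lowest day 0 value, a difference of -1.43 ± 0.14 (SE, adjusted p = 3.50e-08). EPRS, which loads glutamate and proline, MARS, the methionine enzyme, and AARS, the alanine enzyme, differed on day 8 by -1.30, -1.26 and -1.21. NARS, the asparagine enzyme, differed by -1.01 and SARS, the serine enzyme, by -0.84. IARS (isoleucine), WARS (tryptophan), TARS (threonine) and LARS (leucine) differed by -0.82, -0.79, -0.74 and -0.64. The smallest differences were -0.57 for YARS, the tyrosine enzyme, and -0.56 for CARS, the cysteine enzyme.

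**Figure D1:**
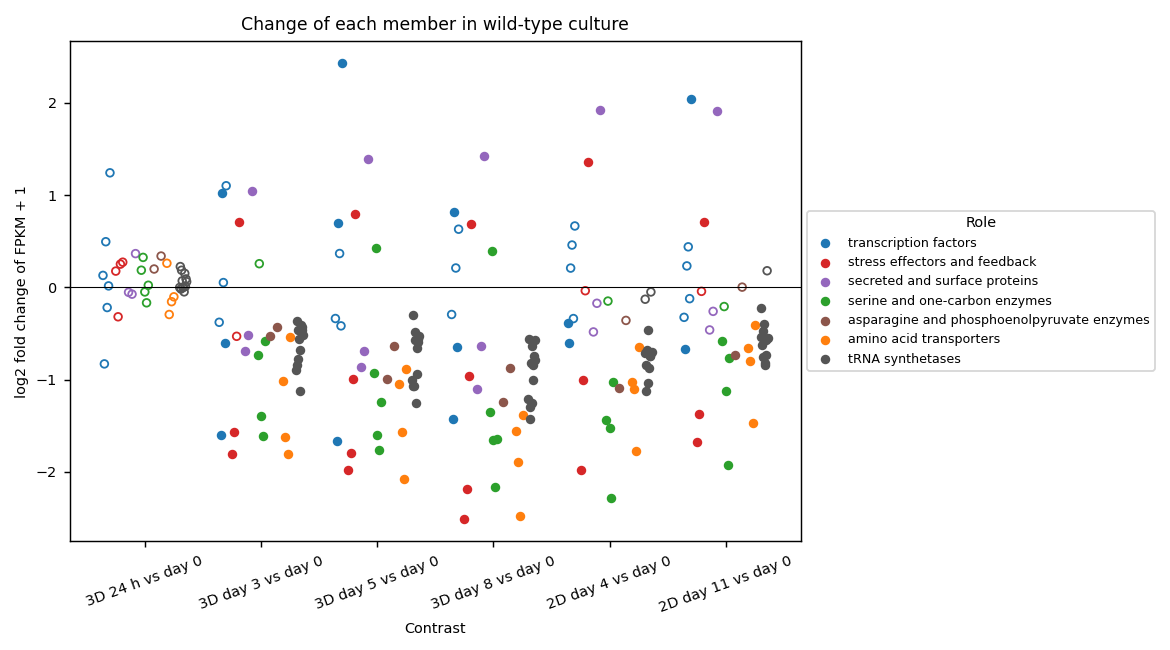
Each point is 1 of the 36 genes, with its log2 fold change of FPKM + 1 in 6 contrasts of wild-type culture against day 0, coloured by role. Filled points passed an adjusted p of 0.05 in limma. On 3D days 3, 5 and 8 all 12 synthetases lie below 0 (-1.43 to -0.56 on day 8), while the other roles spread from -2.51 to 1.43 on 3D day 8.

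The transcription factors did not move together. ATF4 (ENSCAFG00000001324) had 243, 151, 153 and 157 FPKM on day 0, 197 and 180.4 FPKM at 24 h, 142 and 123 FPKM on day 3, 139.8 and 133 FPKM on day 5 and 155 and 127 FPKM on day 8. Its differences of -0.38 ± 0.16, -0.34 ± 0.16 and -0.29 ± 0.16 (SE) on days 3, 5 and 8 did not pass (adjusted p = 0.0619, 0.0870 and 0.128 by limma), and replicate 1 of day 0 was far above the others. ATF3, a stress-induced factor that pairs with other bZIP proteins, had 20.6, 13.5, 25.7 and 18.9 FPKM on day 0, 9.46 and 11.4 FPKM at 24 h, 6.87 and 4.63 FPKM on day 3, 5.11 and 5.66 FPKM on day 5 and 9.02 and 4.63 FPKM on day 8. All libraries from day 3 on were below day 0, a difference of -1.43 ± 0.24 (SE, adjusted p = 3.09e-05) on day 8. CEBPG, a bZIP partner of ATF4, was lower on days 3 and 8 (-0.60 and -0.65), and CEBPB did not pass on any 3D day (0.05, 0.37 and 0.21).

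A few members rose as the others fell. DDIT3 (ENSCAFG00000030112), the factor CHOP, had 0.506, 0.334, 0.399 and 0.451 FPKM on day 0, 1.10 and 0.915 FPKM at 24 h, 2.27 and 1.54 FPKM on day 3, 1.40 and 1.22 FPKM on day 5 and 1.52 and 1.48 FPKM on day 8. It was low throughout but above every day 0 library at all later 3D times, and passed on days 3, 5 and 8 (1.02, 0.70 and 0.82). SESN2, a leucine sensor that restrains the growth kinase mTORC1, had 3.77, 3.08, 3.75 and 4.20 FPKM on day 0, 4.58 and 4.74 FPKM at 24 h, 6.87 and 6.48 FPKM on day 3, 6.86 and 7.40 FPKM on day 5 and 7.16 and 6.02 FPKM on day 8. The day 3 to 8 libraries did not overlap day 0, with differences of 0.71, 0.80 and 0.69 that all passed. VLDLR (ENSCAFG00000002028), a lipoprotein receptor, had 1.33, 2.25, 1.06 and 2.89 FPKM on day 0, 2.77 and 2.44 FPKM at 24 h, 5.40 and 4.21 FPKM on day 3, 5.87 and 6.81 FPKM on day 5 and 7.56 and 5.58 FPKM on day 8, and passed on the same days with 1.05, 1.39 and 1.43. NUPR1, a small stress-induced chromatin protein, had 1.69, 11.4, 17.3 and 11.4 FPKM on day 0, 17.3 and 25.7 FPKM at 24 h, 7.65 and 45.5 FPKM on day 3, 56.7 and 42.7 FPKM on day 5 and 3.65 and 44.0 FPKM on day 8. It passed on day 5 only (2.43, adjusted p = 0.0340 by limma), a call lost without the filter. On days 3 and 8 its replicates were far apart, the low ones being among the 5 libraries that stood apart. DDIT4, an inhibitor of mTORC1 induced by stress, fell on days 5 and 8 (-0.99 and -0.96). The secreted hormones FGF21 and STC2 fell from low levels, by 1.10 and 0.63 on day 8.

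Single libraries and the shared estimate of spread bear on the smaller of these changes. Without the 5 libraries, 11 day 3 calls were lost, among them ASNS (adjusted p = 0.281 by limma), PSAT1 and the synthetases TARS, CARS, SARS and WARS. On days 5 and 8, 1 call each was lost, PSPH both times. Without the filter WARS, ASNS and PCK2 lost the day 3 call. CARS lost the day 5 call under quantile normalisation and under median-ratio scaling. With only day 0 and the compared group in the fit, FGF21 and STC2 lost the day 3 call, STC2, CARS and PSPH the day 5 call, and DDIT4 and STC2 the day 8 call.

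The single 3D day 14 library kept low levels, with no replicate check. Against the mean of day 0, 18 of 36 members were at least 2-fold lower on the log2(FPKM + 1) scale (all genes 11.7%) and 1 was at least 2-fold higher (all genes 12.6%). SLC7A5 was at 18.2 FPKM, PSAT1 at 34.7 FPKM, ASNS at 16.5 FPKM and TRIB3 at 1.83 FPKM, all below every day 0 library. VLDLR, at 8.72 FPKM, was the member that was higher.

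**Figure D2:**
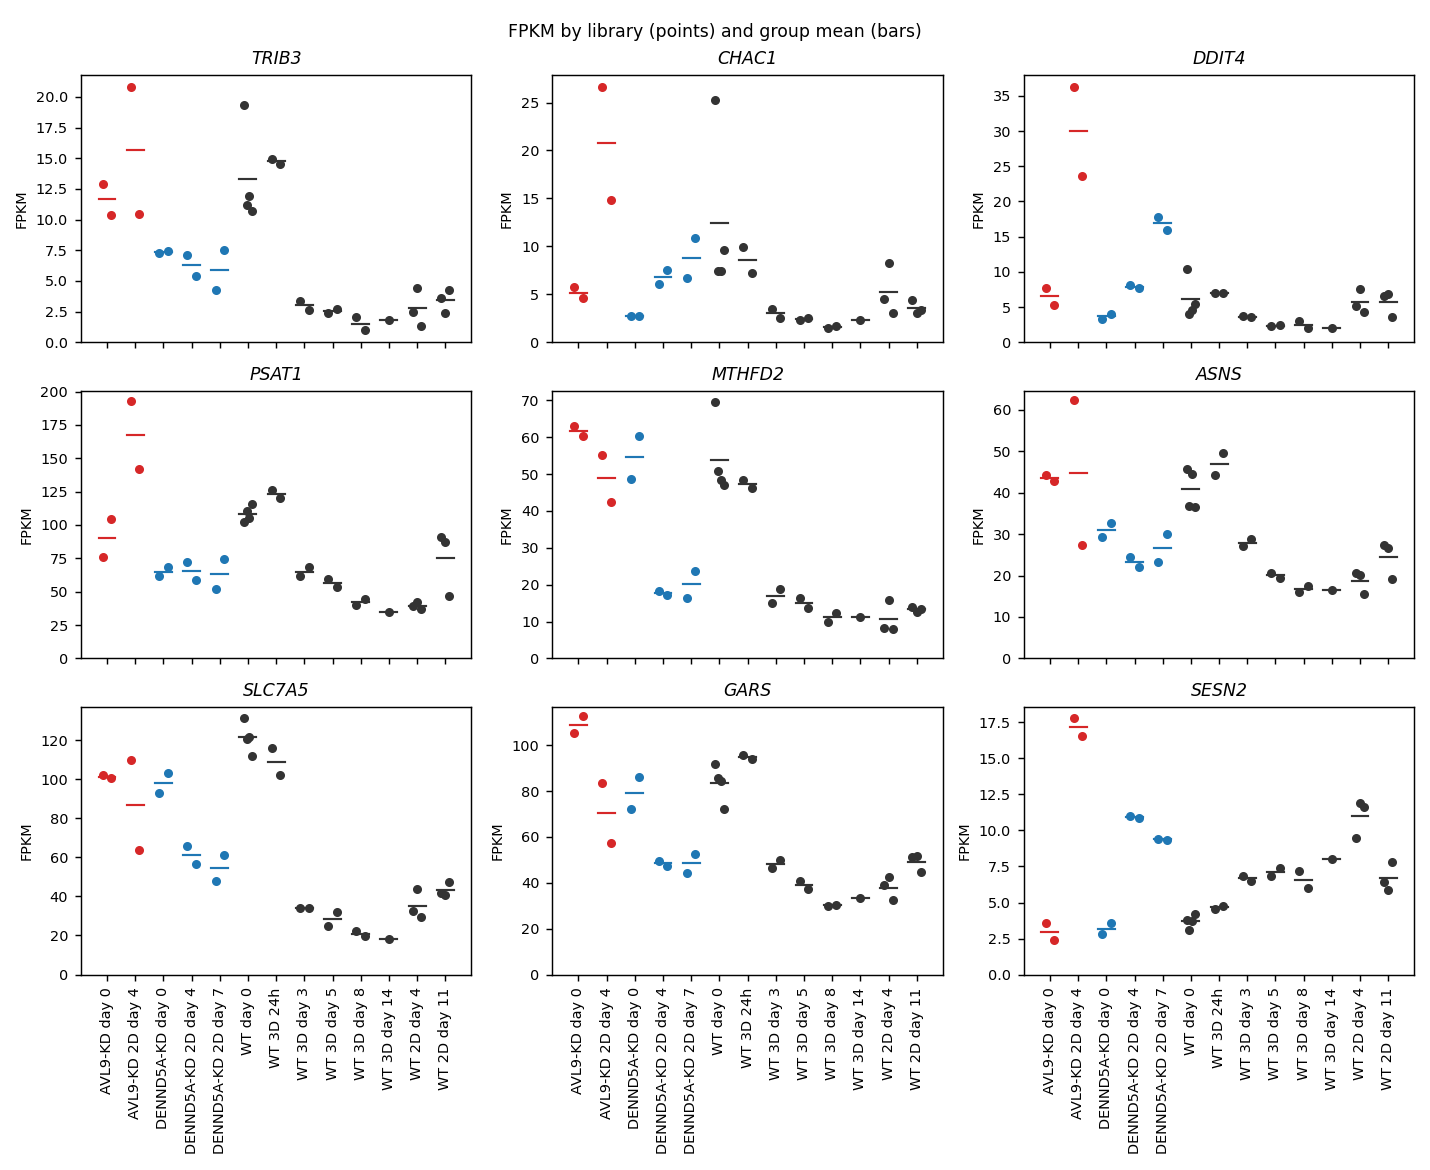
FPKM of 9 genes in each library (points; linear axes from 0) with the group mean (bars), for AVL9-KD (red), DENND5A-KD (blue) and wild type (black). In wild-type 3D culture 8 of the 9 drop after 24 h while SESN2 climbs; on 2D day 4 both AVL9-KD libraries stand above the 3 wild-type libraries in all 9.

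The decline was also present in wild-type cells on inserts. On 2D day 4, 23 members were lower and 2 higher than on day 0, where 59.9% of all tested genes passed (30.3% higher and 29.6% lower). On 2D day 11, 23 were lower and 3 higher, where 55.9% of all tested genes passed (32.2% higher and 23.7% lower). These contrasts share the day 0 libraries with the 3D ones. MTHFD2 had 69.6, 50.7, 48.3 and 47.1 FPKM on day 0, 8.23, 15.8 and 8.05 FPKM on day 4 and 14.0, 12.6 and 13.4 FPKM on day 11. The day 0 libraries did not overlap the later ones, and the differences were -2.28 and -1.92. SLC7A5 had 131, 120.5, 122 and 112 FPKM on day 0, 32.6, 43.9 and 29.4 FPKM on day 4 and 41.7, 40.5 and 47.3 FPKM on day 11, with differences of -1.77 and -1.47. TRIB3 had 19.3, 11.2, 11.9 and 10.7 FPKM on day 0, 2.44, 4.45 and 1.35 FPKM on day 4 and 3.64, 2.39 and 4.23 FPKM on day 11, and the differences were -1.98 and -1.68. ASNS was also below its day 0 range on both days, by 1.09 and 0.73 on the log2 scale, and so were SHMT2, ALDH1L2 and the 4 transporters.

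On inserts 10 of 12 synthetases were lower on day 4 and 11 of 12 on day 11. WARS was the exception on both days: it had 72.2, 68.8, 65.1 and 62.7 FPKM on day 0, 65.4, 76.0 and 54.9 FPKM on day 4 and 79.3, 77.2 and 72.3 FPKM on day 11, and its differences of -0.05 ± 0.16 and 0.18 ± 0.16 (SE) did not pass (adjusted p = 0.808 and 0.344 by limma). CARS differed by -0.13 on day 4 without passing and by -0.22 on day 11, a call lost without the 5 libraries. GARS, the most abundant of the 12 on day 0 by mean FPKM, had 91.7, 85.7, 84.3 and 72.3 FPKM on day 0, 38.9, 42.5 and 32.4 FPKM on day 4 and 51.5, 51.6 and 44.6 FPKM on day 11, below day 0 on both days.

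VLDLR and SESN2 rose on inserts as well. VLDLR had 1.33, 2.25, 1.06 and 2.89 FPKM on day 0, 9.45, 9.50 and 9.71 FPKM on day 4 and 8.89, 9.63 and 9.94 FPKM on day 11, and the insert libraries were all above day 0, with differences of 1.92 and 1.91. SESN2 had 3.77, 3.08, 3.75 and 4.20 FPKM on day 0, 9.49, 11.9 and 11.6 FPKM on day 4 and 6.44, 5.88 and 7.78 FPKM on day 11. It was highest on day 4, at 1.35 against day 0, and differed by 0.71 on day 11. DDIT3, DDIT4, FGF21 and STC2 did not pass on either insert day; DDIT3 differed by 0.21 and 0.23, and DDIT4 by -0.04 on both. ATF4 had 243, 151, 153 and 157 FPKM on day 0, 149.8, 139 and 110.2 FPKM on day 4 and 140.1, 132 and 140.2 FPKM on day 11 and passed on day 4 only (-0.38 ± 0.15 (SE, adjusted p = 0.0280)), a call lost under quantile normalisation (adjusted p = 0.226) and with only both groups in the fit (adjusted p = 0.140 by limma). CHAC1 lost its day 4 call without the 5 libraries and with only both groups in the fit. NUPR1 passed on day 11 (2.04), a call lost under both other scalings and without the filter.

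Between the insert days only PSAT1 and SESN2 passed, where 2.08% of all tested genes passed (1.9% higher and 0.178% lower). Over all genes 224 were higher and 21 lower as deposited, 254 and 121 under quantile normalisation and 242 and 84 under median-ratio scaling. PSAT1 had 91.0, 86.9 and 46.8 FPKM on 2D day 11, against 39.0, 42.5 and 36.7 FPKM on 2D day 4. All day 11 libraries were above day 4, by 0.85 ± 0.19 (SE, adjusted p = 0.0278). SESN2 had 6.44, 5.88 and 7.78 FPKM on day 11, against 9.49, 11.9 and 11.6 FPKM on day 4, a difference of -0.64 ± 0.12 (SE, adjusted p = 0.0139). Neither passed with only these 2 groups in the fit, and PSAT1 did not pass without the 5 libraries.

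Set against inserts (2D days 4 and 11), cysts (3D days 3, 5 and 8) had 18 members lower and 2 higher, where 56.9% of all tested genes passed (22.1% higher and 34.8% lower). The median member differed by -0.26, against -0.08 for all genes. Under quantile normalisation 13 members were lower and 5 higher, and under median-ratio scaling 14 and 5, with member medians of -0.16 and -0.17. Over all genes 2602 were higher and 4094 lower as deposited, 3573 and 3605 under quantile normalisation and 3568 and 3560 under median-ratio scaling. All 4 transporters were lower in cysts, though SLC3A2 lost the call under median-ratio scaling and without the 5 libraries; among them were SLC7A1 (-0.74) and SLC7A5 (-0.50). ATF3 had 4.63 to 9.02 FPKM in the 6 cyst libraries and 10.0 to 14.2 FPKM in the 6 insert libraries, which did not overlap (-0.93 ± 0.16 (SE, adjusted p = 5.35e-05)). WARS had 37.4 to 52.3 FPKM in cysts and 54.9 to 79.3 FPKM on inserts, also without overlap (-0.68 ± 0.12 (SE, adjusted p = 7.27e-05)). VLDLR was lower in cysts (-0.62), although it rose against day 0 in both cultures. DDIT3 was higher in cysts, at 1.22 to 2.27 FPKM, than on inserts, at 0.480 to 0.856 FPKM (0.62 ± 0.08 (SE, adjusted p = 4.25e-06)). PSPH was also higher (0.54), and ASNS and ATF4 differed by -0.01 and 0.02 without passing. The cyst group has no 24 h or day 14 library, and culture and time differ together between cysts and inserts.

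In AVL9-KD cells the median member was near wild type before seeding, with members on both sides of it, and most members were above wild type on inserts. On day 0 the 3 members that passed were all higher, where 18% of all tested genes passed (13.4% higher and 4.59% lower). They were STC2 (1.07), AARS (0.41) and NARS (0.37). STC2 had 3.58 and 3.85 FPKM in AVL9-KD cells, against 2.29, 1.01, 1.09 and 0.816 FPKM in wild-type cells. AARS had 46.8 and 46.9 FPKM in AVL9-KD cells, against 39.1, 36.0, 33.2 and 32.1 FPKM in wild-type cells. The groups did not overlap in these genes, but none of the 3 passed with only the day 0 AVL9-KD and wild-type libraries in the fit. Over all genes 1578 were higher and 540 lower as deposited, 899 and 956 under quantile normalisation and 1096 and 1150 under median-ratio scaling. Under quantile normalisation 1 member was higher and 1 lower, under median-ratio scaling 2 were higher and 3 lower, and with fixed line terms as a block 5 were higher. Without either AVL9-KD line, 1 member passed. The median member differed by 0.07, against 0.11 for all genes. In lines 1 and 4, 10 and 12 members were above every wild-type library of the day (all genes 38.9% and 42.5%). Below every one were 9 and 8 members (all genes 22.2% and 15.3%). ATF4 (-0.37 and -0.32 against the wild-type mean), CHAC1 (-0.81 and -1.09), SLC7A5 and CARS were below in both lines, without passing. ASNS was within the wild-type range in both.

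On 2D day 4, 33 of 36 members were higher in AVL9-KD than in wild-type inserts and none lower, where 21% of all tested genes passed (18.7% higher and 2.34% lower). All 36 differences were positive, with a median of 0.91 against 0.19 for all genes. NUPR1, VLDLR and SLC7A1 did not pass (2.69, 0.42 and 0.41). Under quantile normalisation 29 members were higher and under median-ratio scaling 27, with member medians of 0.70 and 0.67; over all genes 2199 were higher and 275 lower as deposited, 1100 and 973 under quantile normalisation and 888 and 876 under median-ratio scaling. With only these 2 groups in the fit, which leaves few degrees of freedom, 2 members passed (STC2 and PSAT1). Epithelial markers were also highest here, summing to 709.3 and 786.6 FPKM, against 516.9 to 604.5 FPKM in wild-type inserts of the day. Their part in the result was not tested.

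The stress effectors and the secreted factors FGF21 and STC2 were all higher. TRIB3 had 20.8 and 10.5 FPKM in AVL9-KD inserts, against 2.44, 4.45 and 1.35 FPKM in wild-type inserts. The lower AVL9-KD library was above every wild-type one, and the difference was 2.16 ± 0.32 (SE, adjusted p = 1.37e-04). DDIT4 (ENSCAFG00000032469) had 36.3 and 23.6 FPKM in AVL9-KD inserts, against 5.17, 7.52 and 4.32 FPKM in wild-type inserts, a difference of 2.21 ± 0.29 (SE, adjusted p = 4.01e-05). FGF21 (ENSCAFG00000003904), a hormone released under metabolic stress, had 5.74 and 8.88 FPKM in AVL9-KD inserts, against 0.653, 1.26 and 0.241 FPKM in wild-type inserts, a difference of 2.29 ± 0.27 (SE, adjusted p = 1.31e-05). In neither gene did the groups overlap. STC2 (ENSCAFG00000031727), a secreted glycoprotein, had 6.49 and 7.29 FPKM in AVL9-KD inserts, against 1.02, 1.32 and 0.676 FPKM in wild-type inserts, and the difference was 1.99 ± 0.21 (SE, adjusted p = 4.24e-06). CHAC1 had 26.7 and 14.8 FPKM in AVL9-KD inserts, against 4.54, 8.28 and 3.03 FPKM in wild-type inserts. A single wild-type library lay well above the other 2 but below both AVL9-KD libraries (1.82 ± 0.38 (SE, adjusted p = 0.00266)). SESN2, which rose during wild-type culture, was higher again in AVL9-KD inserts, at 17.8 and 16.6 FPKM in AVL9-KD inserts, against 9.49, 11.9 and 11.6 FPKM in wild-type inserts (0.60), a call that was lost under both other scalings.

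All 5 serine and folate enzymes were higher, as were ASNS and PCK2. PSAT1 had 193 and 142 FPKM in AVL9-KD inserts, against 39.0, 42.5 and 36.7 FPKM in wild-type inserts. Both libraries were above even the day 0 wild-type range, and the difference was 2.05 ± 0.22 (SE, adjusted p = 4.16e-06). MTHFD2 had 55.1 and 42.5 FPKM in AVL9-KD inserts, against 8.23, 15.8 and 8.05 FPKM in wild-type inserts, a difference of 2.14 ± 0.22 (SE, adjusted p = 3.15e-06). SHMT2 had 61.7 and 43.4 FPKM in AVL9-KD inserts, against 20.7, 22.0 and 14.6 FPKM in wild-type inserts, a difference of 1.41. The groups did not overlap in these 3 genes. PSPH and ALDH1L2 differed by 1.06 and 1.06. ASNS had 62.3 and 27.4 FPKM in AVL9-KD inserts, against 20.5, 20.2 and 15.5 FPKM in wild-type inserts, and the lines differed more from each other than the lower of them did from wild type (1.12 ± 0.22 (SE, adjusted p = 0.00192)). PCK2 had 41.6 and 24.7 FPKM in AVL9-KD inserts, against 17.3, 15.4 and 12.1 FPKM in wild-type inserts (1.07).

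Among the transporters SLC7A5 had 109.8 and 63.7 FPKM in AVL9-KD inserts, against 32.6, 43.9 and 29.4 FPKM in wild-type inserts, a difference of 1.24 ± 0.19 (SE, adjusted p = 1.43e-04). SLC3A2 and SLC38A2 differed by 1.00 and 0.94. SLC7A1 had 13.1 and 30.5 FPKM in AVL9-KD inserts, against 16.4, 14.3 and 14.2 FPKM in wild-type inserts: line 1 was below the wild-type libraries and line 4 above them. All 12 synthetases were higher, from 0.41 (LARS) to 0.89 (YARS), with a median of 0.67. YARS had 40.4 and 41.3 FPKM in AVL9-KD inserts, against 25.02, 21.8 and 18.4 FPKM in wild-type inserts, and GARS had 83.6 and 57.2 FPKM in AVL9-KD inserts, against 38.9, 42.5 and 32.4 FPKM in wild-type inserts. Neither gene overlapped between the groups. LARS and NARS lost their calls under both other scalings, and WARS under median-ratio scaling.

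Of the transcription factors, ATF4 itself was higher, at 221 and 183 FPKM in AVL9-KD inserts, against 149.8, 139 and 110.2 FPKM in wild-type inserts (0.61 ± 0.17 (SE, adjusted p = 0.0181)). This was below the member median, and it did not pass under either other scaling. CEBPB, a bZIP factor, had 55.9 and 59.9 FPKM in AVL9-KD inserts, against 24.1, 23.8 and 16.9 FPKM in wild-type inserts, a difference of 1.40 ± 0.24 (SE, adjusted p = 5.66e-04). ATF3, CEBPG and DDIT3 differed by 0.93, 0.71 and 0.67. NUPR1 had 96.9 and 91.8 FPKM in AVL9-KD inserts, against 1.81, 38.3 and 28.5 FPKM in wild-type inserts, higher than all 3 wild-type libraries, 1 of which is among the 5 that stood apart.

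**Figure D3:**
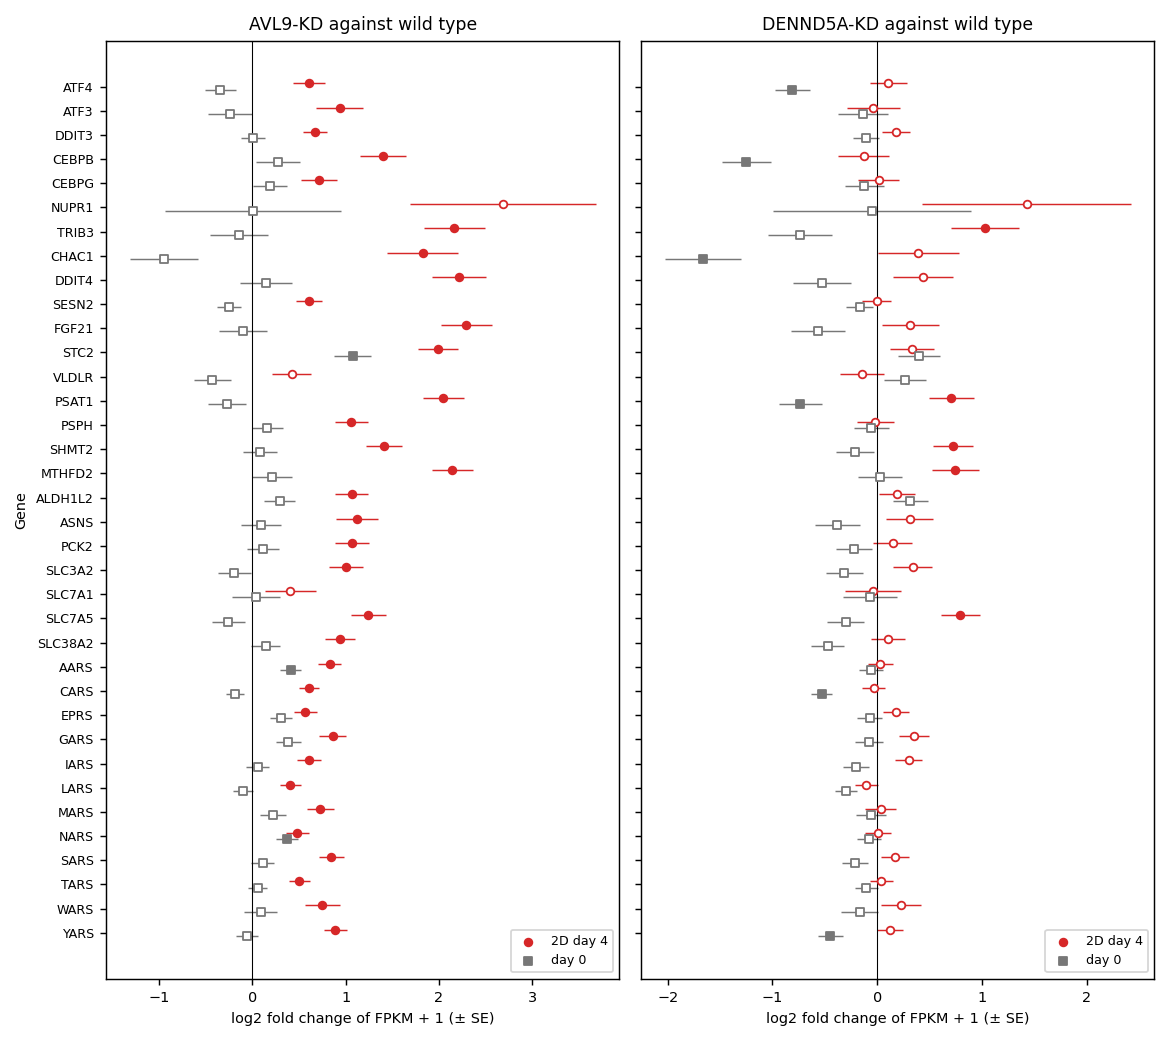
Log2 fold change of FPKM + 1 against wild type (± SE) for each gene, AVL9-KD on the left and DENND5A-KD on the right, on 2D day 4 (red circles) and day 0 (grey squares). Filled symbols passed an adjusted p of 0.05 in limma. In AVL9-KD all 36 circles lie right of 0 and 33 are filled, while 3 squares are; in DENND5A-KD 5 circles and 6 squares are filled.

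The change between the days was tested as an interaction, the AVL9-KD difference on 2D day 4 minus that on day 0. 13 members passed and all 36 values were positive (median 0.88), where 1.22% of all tested genes passed (0.985% higher and 0.238% lower). All 4 stress effectors passed, namely CHAC1 (2.77), TRIB3 (2.31), DDIT4 (2.07) and SESN2 (0.85). FGF21, PSAT1, MTHFD2, SHMT2, SLC7A5, SLC3A2, YARS, CARS and SARS passed as well. Part of the CHAC1 value came from day 0, where lines 1 and 4 were at -0.81 and -1.09 against the wild-type mean. Replicate 1, far above the other wild-type libraries of day 0, raised that mean. SESN2 lost the call under both other scalings and without the 5 libraries, and SARS with a pseudocount of 0.1 and without the 5 libraries. Over all genes 116 were higher and 28 lower as deposited, 110 and 50 under quantile normalisation and 109 and 63 under median-ratio scaling. For PSAT1 the value was 2.32 ± 0.30 (SE, adjusted p = 3.91e-04), and for MTHFD2 1.93 ± 0.31 (SE, adjusted p = 0.00306). With libraries of the same genotype and number, wild type included, as a correlated block, 19 members passed. With fixed line terms for the knockdowns 15 passed, and with only the 4 groups in the fit 1 did (PSAT1). Without the AVL9-KD 2D day 4 library of line 1, 6 passed.

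Within AVL9-KD cells, 2D day 4 against day 0 gave 15 members higher and 6 lower, where 53.9% of all tested genes passed (31.1% higher and 22.8% lower). DDIT4 had 36.3 and 23.6 FPKM on 2D day 4, against 7.69 and 5.32 FPKM on day 0 (2.03). CEBPB, CHAC1, SESN2, FGF21 and VLDLR were higher by 1.59, 1.77, 2.21, 1.91 and 2.77. ATF4 was higher by 0.57, a call lost with only both groups in the fit (adjusted p = 0.0520 by limma). The 6 that were lower were SLC7A1 (-0.73) and 5 synthetases, NARS, GARS, EPRS, MARS and TARS (-0.76 to -0.29). ASNS, MTHFD2 and SLC7A5, which fell in wild-type inserts, differed by -0.07, -0.34 and -0.27 and did not pass.

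Both AVL9-KD lines shared the direction on 2D day 4. With 1 library per line there is no replicate check for these values. In line 1, 35 of 36 members were above every wild-type library of the day, where 54.1% of all genes were. In line 4 all 36 were, where 52.2% of all genes were. At least 2-fold higher than the wild-type mean were 19 members in line 1 (all genes 4.59%) and 11 in line 4 (all genes 3.26%). The synthetases contributed 2 of these in line 1 and none in line 4.

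For most genes line 1 was the higher line. TRIB3 was 2.63 above the wild-type mean in line 1 and 1.70 in line 4 on the log2(FPKM + 1) scale. ASNS was 1.69 above it in line 1 and 0.54 in line 4. WARS was 1.23 above it in line 1, the largest synthetase difference of that line, and 0.26 in line 4. FGF21 and ATF3 went the other way, with 2.02 and 0.76 in line 1 and 2.57 and 1.11 in line 4. PSAT1, MTHFD2, STC2, CEBPB, DDIT4 and CHAC1 were among those over 1 in both lines. SLC7A1 was at -0.17 in line 1, the only negative value, and 0.99 in line 4.

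**Figure D4:**
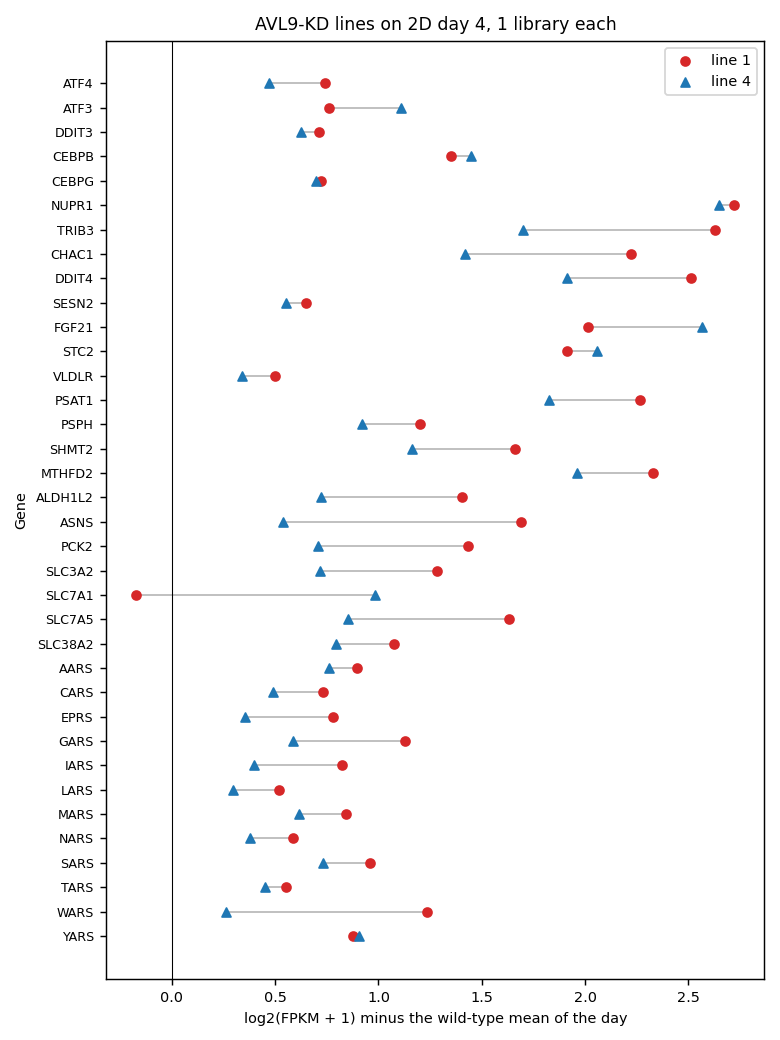
Difference in log2(FPKM + 1) from the wild-type mean on 2D day 4 for each gene in the single libraries of AVL9-KD line 1 (red circles) and line 4 (blue triangles). Every value is above 0 but that of SLC7A1 in line 1 (-0.17); ASNS, WARS and TRIB3 are among the genes whose lines lie far apart.

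Averaged over day 0 and 2D day 4, 27 members were higher and 1 (SLC7A1) lower in line 1 than in wild type, where 33.2% of all tested genes passed (25% higher and 8.15% lower). In line 4, 20 were higher and none lower, where 25.5% of all tested genes passed (21.9% higher and 3.61% lower). The median member differed by 0.62 in line 1, by 0.38 without its 2D day 4 library and by 0.73 without its day 0 library. In line 4 it differed by 0.48, by 0.66 without its 2D day 4 library and by 0.29 without its day 0 library. In these fits the missing value is inferred from the other line and the line difference of the other day. They therefore cannot show which library the calls rest on. Under quantile normalisation 21 were higher in line 1 and 12 in line 4, and under median-ratio scaling 22 and 12; with only the compared groups in the fit line 4 had 8. For line 1, over all genes 2948 were higher and 959 lower as deposited, 1720 and 1827 under quantile normalisation and 1732 and 1850 under median-ratio scaling. For line 4 they were 2580 and 425 as deposited, 1140 and 1107 under quantile normalisation and 1041 and 1169 under median-ratio scaling. STC2, MTHFD2, PSAT1 and FGF21 differed by 1.47, 1.28, 0.88 and 0.92 in line 1 and by 1.59, 1.07, 0.89 and 1.27 in line 4, and passed in both. TRIB3, ASNS and WARS passed in line 1 (1.32, 0.91 and 0.69) and not in line 4 (0.70, 0.30 and 0.15). The direct test of line 4 against line 1 did not pass for these 3 genes (-0.61, -0.60 and -0.53). It passed for 1 member, where 7.27% of all tested genes passed (4.12% higher and 3.15% lower). That member was SLC7A1, with 50.0047 and 30.5 FPKM on day 0 and 2D day 4 in line 4, against 23.0 and 13.1 FPKM in line 1 (1.12 ± 0.16 (SE, adjusted p = 1.84e-04)).

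DENND5A-KD cells departed from wild type in a few members, lower on day 0 and higher on 2D day 4. Only PSAT1 passed on both days, and the other members called differed between the days. On day 0, 6 members were lower and none higher, where 5.52% of all tested genes passed (3.27% higher and 2.25% lower). ATF4 had 93.3 and 103 FPKM in DENND5A-KD cells, against 243, 151, 153 and 157 FPKM in wild-type cells. Both knockdown libraries were below all 4 wild-type ones (-0.81 ± 0.16 (SE, adjusted p = 0.00412)). CEBPB had 5.19 and 6.52 FPKM in DENND5A-KD cells, against 17.2, 15.2, 16.0 and 12.8 FPKM in wild-type cells (-1.25 ± 0.23 (SE, adjusted p = 0.00182)). CHAC1 had 2.74 and 2.73 FPKM in DENND5A-KD cells, against 25.3, 7.37, 7.39 and 9.60 FPKM in wild-type cells (-1.66 ± 0.36 (SE, adjusted p = 0.00722)), and PSAT1 had 61.5 and 68.1 FPKM in DENND5A-KD cells, against 102, 111, 105 and 116 FPKM in wild-type cells (-0.73 ± 0.21 (SE, adjusted p = 0.0394)). These groups did not overlap. The synthetases CARS and YARS differed by -0.53 and -0.45, and the other 10 did not pass. YARS and PSAT1 lost their calls without the 5 libraries that stood apart (adjusted p = 0.0702 and 0.0790 by limma). PSAT1 also lost it without the filter (adjusted p = 0.0586 by limma). ASNS was at 29.4 and 32.8 FPKM, below the wild-type range, without passing (-0.38, adjusted p = 0.454 by limma). Without the line 1 library of DENND5A-KD no member passed, 3 passed without that of line 2, and with only these groups in the fit 3 did, CEBPB, CARS and PSAT1.

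On 2D day 4, 5 members were higher in DENND5A-KD than in wild-type inserts and none lower, where 11.3% of all tested genes passed (5.54% higher and 5.79% lower). TRIB3 had 7.13 and 5.40 FPKM in DENND5A-KD inserts, against 2.44, 4.45 and 1.35 FPKM in wild-type inserts (1.03 ± 0.32 (SE, adjusted p = 0.0433)). PSAT1 had 71.9 and 58.4 FPKM in DENND5A-KD inserts, against 39.0, 42.5 and 36.7 FPKM in wild-type inserts (0.71 ± 0.22 (SE, adjusted p = 0.0391)). SLC7A5 had 65.6 and 56.8 FPKM in DENND5A-KD inserts, against 32.6, 43.9 and 29.4 FPKM in wild-type inserts (0.79 ± 0.19 (SE, adjusted p = 0.00757)). Both knockdown libraries were above all wild-type libraries in these 3 genes. SHMT2 and MTHFD2 differed by 0.73 and 0.75. ASNS differed by 0.31 and ATF4 by 0.11, and neither these nor any synthetase passed. No member passed without the DENND5A-KD line 1 library or with only these groups in the fit, and without the 5 libraries SLC7A5 and SHMT2 alone kept their calls.

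The interaction passed for 3 members, TRIB3 (1.77), PSAT1 (1.44) and SLC7A5 (1.10), where 1.83% of all tested genes passed (1.15% higher and 0.679% lower). With the correlated block, which also joins wild-type libraries by number, 8 members passed, and with fixed line terms 5. Without the 5 libraries that stood apart, TRIB3, PSAT1 and SLC7A5 all lost their calls. Between DENND5A-KD days 7 and 4 on inserts no member passed, where 0.051% of all tested genes passed (0.017% higher and 0.034% lower). Over all genes 2 were higher and 4 lower as deposited, 18 and 109 under quantile normalisation and 11 and 76 under median-ratio scaling. DDIT4 had 17.8 and 16.0 FPKM on 2D day 7, against 8.06 and 7.64 FPKM on 2D day 4, without overlap (1.01 ± 0.32 (SE, adjusted p = 0.282)). In that contrast 3 members had an unadjusted p under 0.05, as did 6.29% of all tested genes. Between the 2 lines no member passed either, where 0.0255% of all tested genes did. Under an unadjusted p of 0.05 there were 2 members, and 5.79% of all tested genes.

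Within DENND5A-KD cells, 12 members were lower and 8 higher on 2D day 4 than on day 0, where 42.3% of all tested genes passed (20.1% higher and 22.2% lower). MTHFD2, ALDH1L2 and SLC7A1 were lower by 1.56, 1.15 and 1.06 on the log2 scale, along with 7 synthetases led by MARS (-0.95). CEBPB, SESN2, VLDLR and CHAC1 were higher by 1.58, 1.52, 1.51 and 1.06. PSAT1 differed by 0.00 and ASNS by -0.40 without passing.

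Set against each other over day 0 and 2D day 4, DENND5A-KD was lower than AVL9-KD in 30 members and higher in none, where 30.5% of all tested genes passed (4.57% higher and 26% lower). The median was -0.49, against -0.17 for all genes. Under quantile normalisation 16 members were lower, and 17 under median-ratio scaling or with only these groups in the fit. Over all genes 538 were higher and 3056 lower as deposited, 1362 and 1286 under quantile normalisation and 1348 and 1110 under median-ratio scaling. CEBPB had 5.19 and 6.52 FPKM on day 0 and 16.5 and 22.7 FPKM on 2D day 4 in DENND5A-KD, against 25.3 and 13.6 FPKM and 55.9 and 59.9 FPKM in AVL9-KD (-1.53 ± 0.19 (SE, adjusted p = 3.03e-05)). STC2, DDIT4 and FGF21 differed by -1.16, -1.23 and -1.22. All 12 synthetases were lower as deposited, by 0.29 (IARS) to 0.63 (AARS). IARS, TARS, EPRS, LARS and WARS lost the call under both other scalings and GARS under quantile normalisation, where the differences of these 6 were -0.22 to -0.04. WARS also lost it without the filter and without the 5 libraries.

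**Figure D5:**
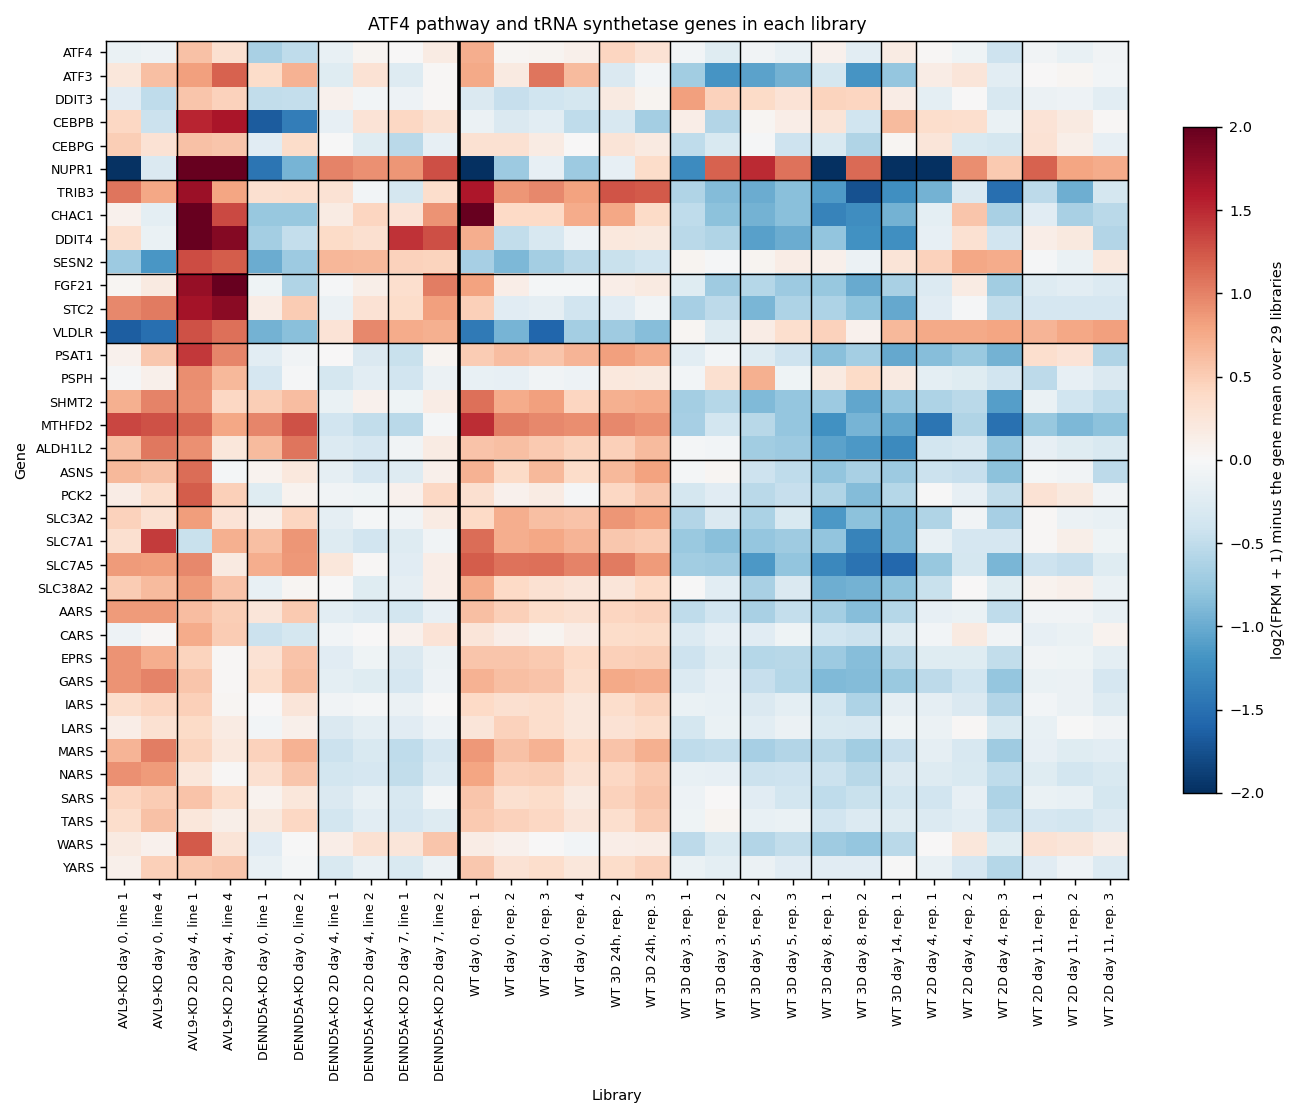
Each row is a gene and each column a library, with the colour giving log2(FPKM + 1) minus the gene mean over all 29 libraries (red above, blue below; values past 2 take the end colour). Rows are split by role and columns by group, knockdowns left of the thick line. The AVL9-KD 2D day 4 columns are red in nearly all rows, with a member mean of 0.97 and 0.69, while the 3D day 8 columns are blue in most, with -0.60 and -0.65.

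Averaged over members, the centred log2(FPKM + 1) was 0.97 and 0.69 in the AVL9-KD 2D day 4 libraries of lines 1 and 4. It was -0.06 and 0.00 in DENND5A-KD and -0.31, -0.07 and -0.48 in wild type on the same day. The mean of the synthetases was 0.54 and 0.23 in the AVL9-KD 2D day 4 libraries, about the wild-type day 0 values of 0.51, 0.40, 0.38 and 0.25. The mean of the other members was 1.18 and 0.91 in these AVL9-KD libraries, above the wild-type day 0 values of 0.42, 0.17, 0.23 and 0.18.

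Other genes of the pathway were read from lists of other members. Of 15 tested further ATF4 targets, 11 were lower and 1 higher on 3D day 8 (all genes 24.7% higher and 38% lower), and 10 lower and 2 higher on 2D day 4 (all genes 30.3% higher and 29.6% lower), against day 0. SLC7A11, the cystine importer, differed by -2.25 and -2.02, and CTH, which makes cysteine, by -2.52 and -1.97. KLHL24, a ubiquitin ligase adaptor, was higher at both times (2.21 and 2.48). In AVL9-KD inserts 10 of the 15 were higher and none lower (all genes 18.7% higher and 2.34% lower), among them SLC7A11 (1.81), the transcription factor ATF5 (1.35) and GADD45A (1.24), a stress-induced growth arrest protein. In DENND5A-KD inserts 3 were higher (all genes 5.54%), ATF5, SLC1A5 and PYCR1 (0.69, 0.52 and 0.50).

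Of 8 genes for eIF2 kinases, eIF2 phosphatase subunits and their partners, 5 were higher in AVL9-KD than in wild-type inserts and none lower (all genes 18.7% higher and 2.34% lower). PPP1R15A, the stress-induced phosphatase subunit GADD34, was lower in AVL9-KD on day 0 (-1.45) and higher on 2D day 4 (0.91), with an interaction of 2.35 that passed. Of 12 genes of the unfolded protein response of the endoplasmic reticulum, 4 were higher, by at most 0.75 (HERPUD1), and none lower, against the same shares over all genes. The chaperone HSPA5 (BiP) differed by 0.48. On 3D day 8, 9 of these 12 were lower and 2 higher than on day 0 (all genes 24.7% higher and 38% lower), with HSPA5 at -1.22 and HERPUD1 at 1.10.

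Of the 7 other cytosolic synthetases tested, 5 were lower and 1 higher on 3D day 8 than on day 0 (all genes 24.7% higher and 38% lower), the higher one being the glutamine enzyme QARS (0.59). In AVL9-KD inserts 3 of 7 were higher (all genes 18.7%), HARS, RARS and FARSA (0.39, 0.65 and 0.66). Of 14 mitochondrial synthetases, 9 were lower and 3 higher on 3D day 8, RARS2 being highest (2.15). In AVL9-KD inserts 4 of the 14 were higher and RARS2 lower (-0.55). The shares over all genes are the same as for the cytosolic enzymes.

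Across the 29 libraries most members followed the average of the others, as a description over libraries that share groups. TRIB3 (r = 0.92), PCK2 (0.92) and SLC38A2 (0.92) were closest to the mean of the other members, and the 12 synthetases had r between 0.68 (NARS) and 0.88 (SARS). VLDLR (-0.33), DDIT3 (-0.21) and SESN2 (-0.11) were negative, and NUPR1, CEBPB and PSPH were at 0.07, 0.18 and 0.25. ATF4 mRNA itself had 0.54. Outside the set, the tested genes most like the member mean were ATXN2L (0.92), SLC5A6 (0.92), GRAMD3 (0.92), SLC11A2 (0.90) and ESRP1 (0.90). They were followed by LONP1, MCU, ANO4, TBRG1 and TAF6 (0.88 to 0.87).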

How the data were processed

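FPKM per gene and library were deposited by the authors, 1 file per library; HISAT2 2.1.0, Cufflinks 2.2.1 and the build names canFam3 and CanFam3.1 stand in the submitters' processing notes, without their roles. Depth cannot be recovered from FPKM, so no counting interval is given. The members and gene lists were chosen with earlier results of these data known, as were the 5 libraries named as standing apart. Genes at 1 FPKM or more in at least 2 libraries were tested on log2(FPKM + 1) by limma's trended moderated test, 2-sided (limma 3.58.1, R 4.3.3). All 29 libraries entered the fit, each group having its own mean, which left 16 residual degrees of freedom. Benjamini-Hochberg adjustment ran over every tested gene of a contrast. Contrasts by line used a fit with line terms and 14 residual degrees of freedom. Pseudocount, filter, scaling, replicate block, the 5 libraries, the groups in the fit and each library were varied. The steps were tested on simulated data. Figures were drawn with matplotlib 3.10.9.

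A call is an adjusted p under 0.05. By rule, up to 4 members per direction with the smallest adjusted p (8 for the lines) are named in each comparison. The rule also names 3 per direction for the pathway lists and the 10 genes most like the member mean. ATF4 and ASNS were to be named throughout, but some comparisons leave 1 or both out. Other members are named for their role, after their values were seen. Line numbers pair the knockdown libraries by design (correlation of same-line deviations 0.36 in AVL9-KD and 0.01 to 0.10 in DENND5A-KD); wild-type numbers met the criterion for pairing, every one of at least 3 same-number correlations over 0.1, between day 0 and 2D day 4 (0.13 to 0.56), where all 25 member calls held with the block. They did not between day 11 and either (-0.02 to 0.14), and other wild-type groups share at most 2 numbers (all pairs -0.16 to 0.56). The 3D day 14 library entered the fit but no test.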

Additional observations from a re-analysis of the deposited data

Results flagged for a closer look

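Replicate 1 of wild-type day 0 lay far from the other 3 day 0 libraries in 4 members, by Dixon's criterion for 4 values, which chance meets in about 1 of 20 groups. ATF4 was at 243 FPKM there, against 151 to 157 FPKM in the others. TRIB3 was at 19.3 FPKM, against 10.7 to 11.9 FPKM. CHAC1 was at 25.3 FPKM, against 7.37 to 9.60 FPKM. MTHFD2 was at 69.6 FPKM, against 47.1 to 50.7 FPKM. This library is among the 5 that stood apart. No share over all tested genes is given beside this count, so it does not set these members apart.

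The knockdown effect differed between 2D day 4 and day 0, by the limma interaction, in 13 members for AVL9-KD. The differences on the log2 scale were 2.77 (CHAC1), 2.39 (FGF21), 2.32 (PSAT1), 2.31 (TRIB3), 2.07 (DDIT4), 1.93 (MTHFD2), 1.5 (SLC7A5), 1.33 (SHMT2), 1.19 (SLC3A2), 0.95 (YARS), 0.85 (SESN2), 0.79 (CARS) and 0.73 (SARS). For DENND5A-KD they were 1.77 (TRIB3), 1.44 (PSAT1) and 1.10 (SLC7A5). The 2 interactions share the same wild-type libraries.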

How the results depend on the processing

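The 353 member calls were recomputed under other settings: 2682 values kept their call, 276 lost it (113 with only the compared groups in the fit, 53 under quantile normalisation, 40 under median-ratio scaling and 34 without the 5 libraries) and none reversed. Leaving out each library, 2202 kept and 344 lost it, 55 of them without AVL9-KD 2D day 4 line 1; PCK2 in line 4 ran from -0.00664 without AVL9-KD day 0 line 4, a reversal, to 0.924 without 2D day 4 line 4. The causes were not tested, beyond the fewer libraries in such fits. In the PCK2 fits the value of the missing library is inferred from line 1 and the line difference of the other day. The reversal is therefore no measured value of line 4.

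Counts of members called moved by over 1.5 times as follows. For 24 h against day 0 (0 as reported) the count was 1 with a pseudocount of 0.1, without the filter, with the replicate block and with a term for the 5 libraries, and 2 under median-ratio scaling. For 2D day 11 against day 4 it was 1 without the 5 libraries and 0 with these groups alone. For DENND5A-KD it was 3 with the groups alone on day 0; on 2D day 4 it was 2 without the filter, 2 without the 5 libraries and 0 alone. The DENND5A-KD interaction gave 9 under both other scalings, 8 and 5 with the replicate block (as a correlation and as fixed line terms), 7 with a term for the 5 libraries, and 1 without them or alone. For AVL9-KD on day 0 it was 5 under median-ratio scaling, 5 with the replicate block as fixed line terms and 0 alone. With the groups alone it was 2 for AVL9-KD on 2D day 4, 1 for its interaction and 12 for its 2D day 4 against day 0. DENND5A-KD against AVL9-KD gave 16 under quantile normalisation, 17 under median-ratio scaling and 17 alone. Line 4 against wild type gave 12 under both scalings and 8 alone; line 4 against line 1 gave 3 under both scalings, 2 with the term and 0 alone. The replicate block moved no other count by over 1.5 times.

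Leaving out each library in turn gave 0 to 1 for 24 h, 0 to 2 for 2D day 11 against day 4, 0 to 6 and 0 to 4 for DENND5A-KD on day 0 and 2D day 4, 0 to 5 for its interaction, and 12 to 15 for its 2D day 4 against day 0. It gave 1 to 4 for AVL9-KD on day 0, 24 to 34 on 2D day 4, and 6 to 19 for its interaction. It gave 6 to 30 for line 1, 4 to 21 for line 4, and 1 to 3 for line 4 against line 1. A lone remaining library is taken to vary like the other groups. In the line fits a missing AVL9-KD library is inferred from the other line and the other day. FPKM without depth limit what can be said of genes near 1 FPKM, such as FGF21, STC2 and DDIT3.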
